A study of Mus musculus with 4 samples.

Results

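The 10 genes described here encode 7 matrix metalloproteinases (Mmp2, Mmp8, Mmp9, Mmp12, Mmp13, Mmp14 and Mmp19) and 3 tissue inhibitors of metalloproteinases (Timp1, Timp2 and Timp3). They are a fixed list of names out of 18782 genes measured, drawn from 1 protease family and its inhibitors with earlier results of these data known, and each had 1 probe set of its own on the array. The number of them that changed is therefore not independent evidence about the family. The series compared alveolar macrophages, which live in the air sacs of the lung and clear surfactant and debris there, from adult mice of 2 genotypes on a C57BL/6 background. KO mice (CD11cCre/PPARg fl/fl) carried floxed Pparg alleles and a Cre recombinase under the CD11c promoter, and WT mice (PPARg fl/fl) carried the floxed alleles without the Cre. Each genotype had 2 arrays, and each array held RNA of sorted cells pooled from 2 mice, so the spread is that between pools. CD11c is also made by other macrophages and by dendritic cells, so the Cre is not confined to alveolar macrophages. The labels describe the WT cells as mature and the KO cells as immature precursors arrested in development, and the sort took CD11b-low cells from WT lungs and CD11b-high cells from KO lungs. A difference between the groups therefore cannot be told apart from the difference between these gates.

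Matrix metalloproteinases are zinc endopeptidases that cut collagen, elastin and other proteins of the extracellular matrix as well as cytokines and cell-surface proteins. Most are secreted as inactive zymogens, and a cysteine in the propeptide blocks the zinc until it is removed, often by another protease. TIMPs bind the active site and stop the enzymes. In the lung, macrophages are a main source of the elastase encoded by Mmp12, which has been studied in emphysema.

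Several of these genes lie next to each other on mouse chromosome 9, and the bases before their starts are shown because Mmp12 and Mmp8 rose in KO while Mmp13, next to Mmp12, did not pass the test. RefSeq (GRCm38.p6) gave promoter windows for 7 of the 10 genes, 8 windows in all. Mmp2, Mmp9 and Mmp19 had no window, so the motif counts below leave them out. The 250 bases before the start of Mmp13, of both starts of Mmp12 and of Mmp8 follow, on the plus strand and 5′ to 3′. Capitals mark TGAGTCA on either strand, the binding motif of the transcription factor AP-1, and TATAAA, the TATA box.
Mmp13 (chr9:7272264-7272513): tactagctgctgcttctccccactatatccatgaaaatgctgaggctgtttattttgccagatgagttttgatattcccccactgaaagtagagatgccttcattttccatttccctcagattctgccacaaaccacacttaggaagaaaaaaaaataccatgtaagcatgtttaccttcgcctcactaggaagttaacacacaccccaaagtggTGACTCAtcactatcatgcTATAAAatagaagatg
Mmp12, outer start (chr9:7344147-7344396): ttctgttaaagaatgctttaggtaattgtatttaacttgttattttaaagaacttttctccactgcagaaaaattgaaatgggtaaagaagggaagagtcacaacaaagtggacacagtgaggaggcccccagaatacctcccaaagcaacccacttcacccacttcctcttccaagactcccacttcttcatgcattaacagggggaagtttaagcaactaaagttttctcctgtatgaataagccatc
Mmp12, inner start (chr9:7347124-7347373): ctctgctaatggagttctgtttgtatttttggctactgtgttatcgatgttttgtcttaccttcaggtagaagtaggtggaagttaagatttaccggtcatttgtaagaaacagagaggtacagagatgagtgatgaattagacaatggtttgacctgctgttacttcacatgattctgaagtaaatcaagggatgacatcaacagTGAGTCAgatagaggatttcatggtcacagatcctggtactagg
Mmp8 (chr9:7558179-7558428): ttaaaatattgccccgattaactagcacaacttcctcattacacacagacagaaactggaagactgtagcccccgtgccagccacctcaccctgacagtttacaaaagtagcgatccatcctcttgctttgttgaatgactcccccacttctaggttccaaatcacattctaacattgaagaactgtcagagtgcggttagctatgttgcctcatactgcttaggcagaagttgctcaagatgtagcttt
The AP-1 motif lay 44 to 38 bases before the inner start of Mmp12, and on the other strand, as TGACTCA, 35 to 29 bases before the start of Mmp13. It was found in 4.46% of the 32851 windows of this length in the same RefSeq table. TATAAA lay 16 to 11 bases before the start of Mmp13, and 12.4% of all windows held it. The motif AGGAAG, bound by ETS factors and left in lower case, was in 6 of the 8 windows, against 29.5% of all windows. The repeat of AGGTCA after 1 spacer base, bound by PPAR with its partner RXR, was in 0 of the 8 windows and in 11 windows of all genes. Only exact matches were sought. With 0.0335% of all windows holding one, its absence from 8 windows does not tell whether PPAR sites are there. A match in letters describes the window and shows no binding.

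The deposited values were on the log2 scale, ran from 0.96 to 12.11 and had a median of 3.14 on every array, so a difference of 1 is a doubling. The files used here carry no call of presence, and a level below the array median is given as such. Arrays correlated across genes with r = 0.996 within KO, r = 0.995 within WT and between 0.974 and 0.980 across genotypes. Pparg itself, the targeted gene, read 9.59 and 9.73 in KO and 9.69 and 9.75 in WT (difference -0.06 ± 0.10, SE; limma adjusted p = 0.79), and whether its probes fall within the floxed part could not be told, so the genotype rests on the labels. The CD11b gene Itgam rose by 5.76 ± 0.14 (limma adjusted p = 1.25e-05), as the gates were set. Genes were compared with limma over all 18782 genes, and a gene counted as changed at an adjusted p under 0.05.

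Of the 10 genes, 6 rose in KO macrophages, 0 fell and 4 did not pass the test in limma. At an unadjusted p under 0.05 the counts were 7 higher and 1 lower, and 5006 of all 18782 genes met that cut-off in either direction. At the adjusted p, 7.41% of all genes rose and 6.86% fell, 14.3% in all. All 6 rose by 1 or more on the log2 scale, as did 3.11% of all genes. The median difference of the 10 genes was 1.76, against -0.015 over all genes. The genes that rose were 4 of the 7 metalloproteinase genes (Mmp12, Mmp2, Mmp14 and Mmp8) and 2 of the 3 inhibitor genes (Timp2 and Timp1). Both KO arrays lay above both WT arrays for 7 of the genes, an order that 25.3% of all genes showed, and below them for Timp3, as for 30.0% of all genes. In either order, the groups did not overlap for 55.3% of all genes. The groups overlapped for Mmp9 and Mmp19.

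**Figure D1:**
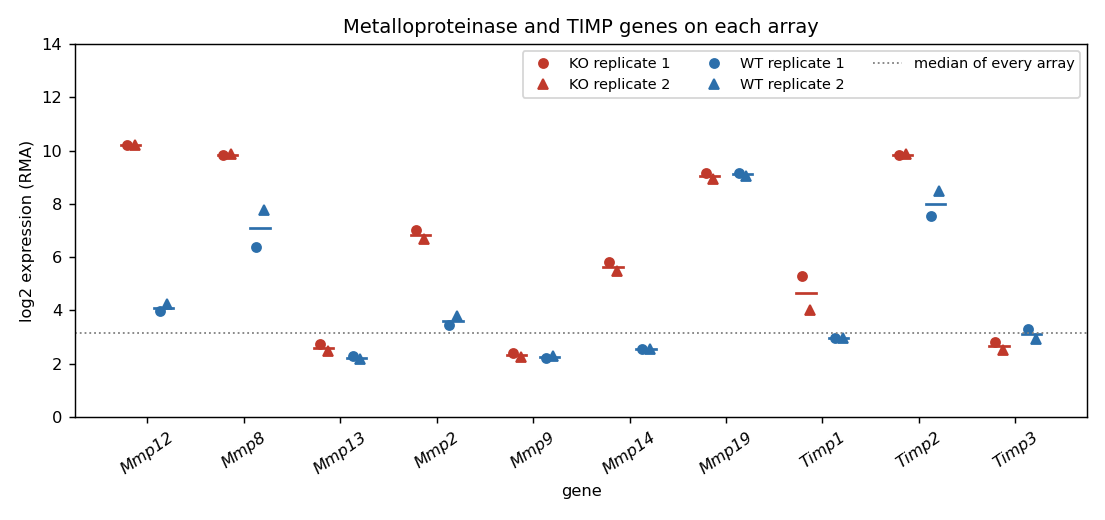
Each gene's log2 expression on each array, with KO in red to the left of WT in blue, circles for replicate 1, triangles for replicate 2 and a bar at the mean of 2 arrays. The KO arrays of Mmp12 stand at 10.21 against 3.97 and 4.22 in WT, the WT arrays of Mmp8 and Timp2 and the KO arrays of Timp1 lie apart from each other, and Mmp9 and Mmp13 stay below the array median of 3.14 on all arrays.

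Mmp12 encodes macrophage elastase, a secreted enzyme that degrades elastin. It read 10.21 on both KO arrays, against 3.97 and 4.22 on the WT arrays. The groups were far apart and the KO arrays were equal at the precision deposited. The difference was 6.11 ± 0.12 (SE; limma adjusted p = 8.27e-06), which is 69.2-fold on the linear scale with a 95% confidence interval of 5.83 to 6.40 on the log2 scale. Ranked by the size of the rise, Mmp12 was number 4 of the 18782 genes. With any 1 array left out the difference stayed between 5.99 and 6.24.

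The collagenases cut intact fibrillar collagen, and only the gene of 1 of the pair in the set passed the test. Mmp8, which encodes a collagenase first known from neutrophils, read 9.82 and 9.88 in KO against 6.40 and 7.78 in WT. The KO arrays were alike, while WT replicate 2 lay well above WT replicate 1 and still below both KO arrays. Mmp8 rose by 2.76 ± 0.40 (SE), or 6.79-fold (limma adjusted p = 0.00712). The gap of 1.38 between its WT arrays was number 35 of all genes by size, against a median WT gap of 0.117. The difference was 3.45 without WT replicate 2 and 2.07 without WT replicate 1. Without KO replicate 1 the limma adjusted p was 0.0589 and without KO replicate 2 it was 0.0596, so the call then ended although the difference was 2.79 and 2.74. Mmp13, the main interstitial collagenase of mouse tissues, read 2.74 and 2.46 in KO against 2.29 and 2.16 in WT. Both KO arrays were above the WT arrays and all 4 were below the array median. Its difference of 0.38 ± 0.13 did not pass the test (limma adjusted p = 0.115).

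The gelatinases cut denatured collagen and basement membrane collagen, and of the pair in the set Mmp2 passed the test and Mmp9 did not. Mmp2 read 7.01 and 6.68 in KO against 3.45 and 3.79 in WT. Its groups were well separated, and the gaps within KO (0.329) and within WT (0.336) were small beside the difference. Mmp2 rose by 3.22 ± 0.16 (SE), or 9.34-fold (limma adjusted p = 1.56e-04), number 70 of all genes by the size of the rise. Mmp9 read 2.40 and 2.23 in KO against 2.23 and 2.29 in WT, below the array median throughout. The groups overlapped, and the difference of 0.06 ± 0.11 did not pass the test (limma adjusted p = 0.788; 95% confidence interval -0.20 to 0.32).

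Mmp14 encodes a membrane-anchored metalloproteinase that activates the zymogen made from Mmp2 at the cell surface. It read 5.80 and 5.47 in KO against 2.53 and 2.55 in WT. Both WT arrays were below the array median and both KO arrays above it, and RMA compresses low values, which understates a fold change from such a level. Mmp14 rose by 3.10 ± 0.13 (SE), or 8.55-fold (limma adjusted p = 8.55e-05), and was number 81 of all genes. The rise of Mmp14 and that of Mmp2 each held with any 1 array left out, with differences from 2.93 to 3.26 for Mmp14 and from 3.06 to 3.39 for Mmp2.

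Mmp19 encodes a secreted metalloproteinase of basement membrane components. It read 9.15 and 8.92 in KO against 9.16 and 9.06 in WT. The arrays of the 2 groups interleaved at a level high on the scale. The difference was -0.07 ± 0.12 (limma adjusted p = 0.756), and its 95% confidence interval of -0.36 to 0.21 does not reach a doubling in either direction.

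**Figure D2:**
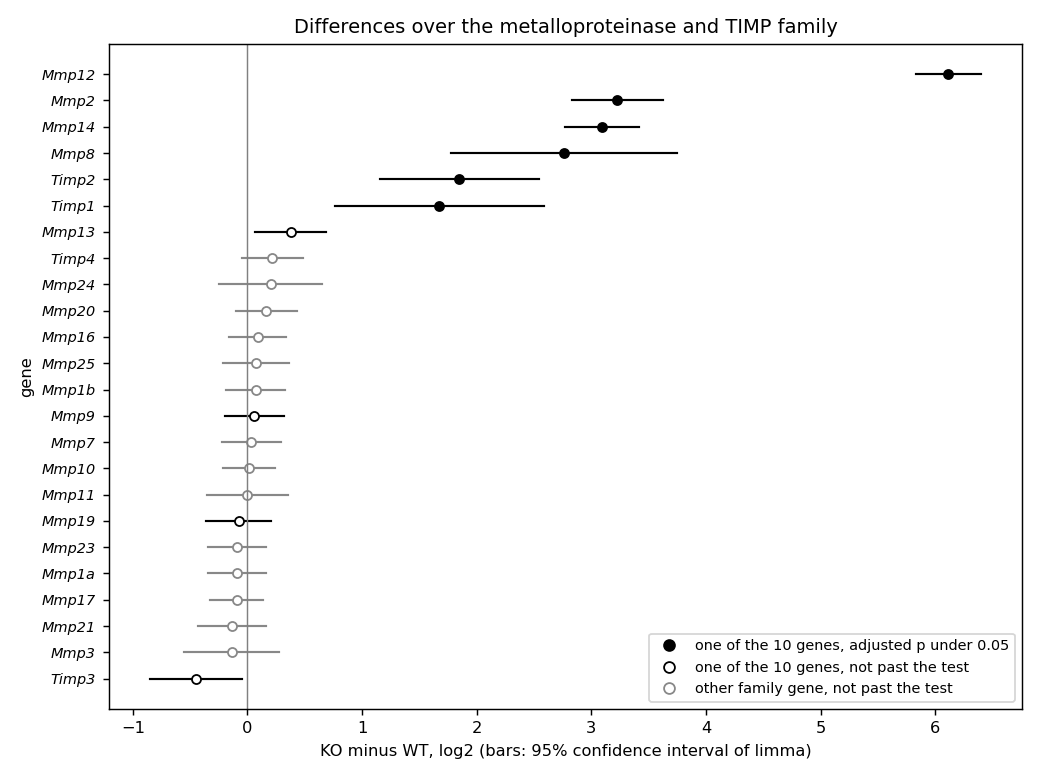
KO minus WT on the log2 scale for the 10 genes (black) and 14 other genes of the family (grey), with 95% confidence intervals from limma and filled points where the adjusted p was under 0.05. The 6 filled points run from 1.67 for Timp1 to 6.11 for Mmp12, and the other family genes lie between -0.14 and 0.22.

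Of the inhibitor genes, Timp2 and Timp1 rose and Timp3 did not pass the test. Timp2 encodes an inhibitor that also helps Mmp14 to capture and activate the Mmp2 zymogen. It read 9.83 and 9.87 in KO against 7.53 and 8.48 in WT. As with Mmp8, the KO arrays were alike and WT replicate 2 lay nearer to them. Timp2 rose by 1.85 ± 0.29 (SE), or 3.60-fold (limma adjusted p = 0.00877). Its WT gap of 0.95 was number 119 of all genes by size. The call ended without KO replicate 1 (limma adjusted p = 0.0659) and without KO replicate 2 (0.0680), with differences of 1.87 and 1.83. It held without either WT array, where the difference was 1.37 without WT replicate 1 and 2.32 without WT replicate 2.

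Timp1 encodes a secreted inhibitor induced by many cytokines. It read 5.29 and 4.01 in KO against 2.98 and 2.98 in WT. The WT arrays agreed closely just below the array median, and the KO arrays differed by 1.28, number 9 of all genes by size of the gap within KO. Timp1 rose by 1.67 ± 0.38 (SE), or 3.19-fold (limma adjusted p = 0.0331). The call ended without WT replicate 1 (limma adjusted p = 0.0916) and without WT replicate 2 (0.0789), with differences of 1.68 and 1.67. It held without KO replicate 1, where the difference was 1.03, and without KO replicate 2, where it was 2.31. It also ended with robust empirical Bayes (0.05002) and with p adjusted over all probe sets (0.0598). Timp1 thus lost its call under 4 of 12 alternatives, against 2 for Mmp8, 2 for Timp2 and 0 for Mmp12, Mmp2 and Mmp14.

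Timp3 encodes an inhibitor that stays bound to the matrix. It read 2.82 and 2.53 in KO against 3.31 and 2.94 in WT. Both KO arrays were below both WT arrays, near the array median. The difference of -0.45 ± 0.16 (SE) did not pass the test (limma adjusted p = 0.142).

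**Figure D3:**
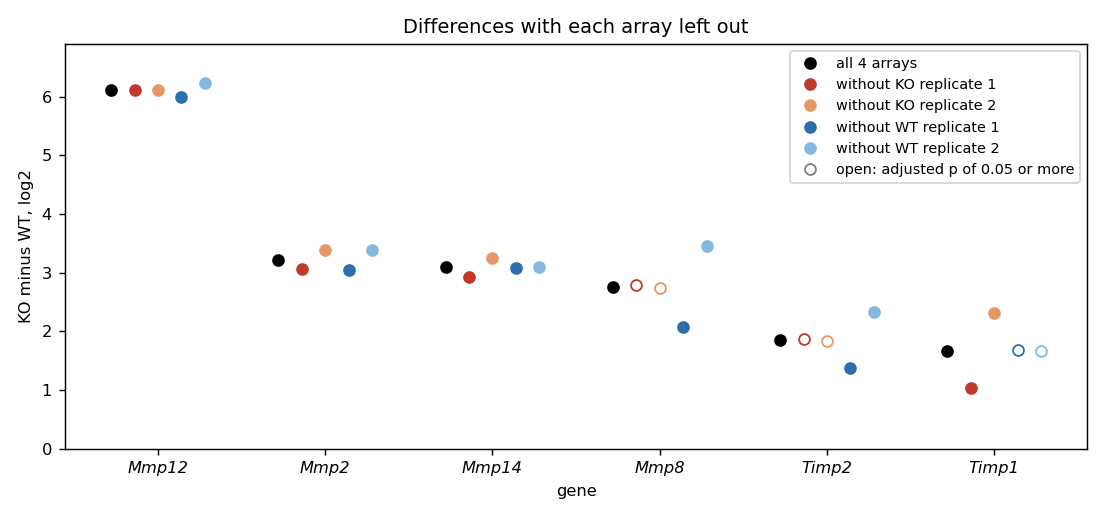
KO minus WT on the log2 scale for the 6 genes that rose, with all 4 arrays and with each array left out, and open symbols where the adjusted p was 0.05 or more. Mmp12, Mmp2 and Mmp14 stay filled throughout, while Mmp8 and Timp2 are open without either KO array and Timp1 is open without either WT array.

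The 2 WT arrays were not equally far from KO for these genes. In 5 of the 6 genes that rose, WT replicate 2 was nearer to the KO mean than WT replicate 1 was. The same held for 71.1% of the 1391 genes that rose over the whole array, so the lean is shared with other genes. Of the 6 genes, 3 were higher on KO replicate 1 than on KO replicate 2, against 54.2% of all genes that rose. With an array left out, its group has a single array and is taken to vary like the other group. Without a KO array the spread therefore comes from the WT pair, which was wide for Mmp8 and Timp2, and without a WT array it comes from the KO pair, which was wide for Timp1.

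The rest of the family was measured for 14 of 17 listed genes, including Timp4, and 0 rose and 0 fell in limma, also 0 at an unadjusted p under 0.05. Their median difference was 0.02 and their differences ran from -0.14 for Mmp3 to 0.22 for Timp4. Of the 14, 13 were below the array median on all 4 arrays, and the exception, Mmp23, read 3.17 and 3.19 in KO against 3.19 and 3.35 in WT. Low signal limits what these probe sets could show. Mmp15, Mmp27 and Mmp28 were not analysed here.

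Mmp12, Mmp8 and Mmp13 lie in a run of metalloproteinase genes on chromosome 9 (RefSeq, GRCm38.p6), which made it possible to ask whether neighbours moved along. In their order on the chromosome the genes listed were Dync2h1, Dcun1d5, Mmp13, Mmp12, Mmp1b, Mmp3, Mmp1a, Mmp10, Mmp8, Mmp27, Mmp20, Mmp7, Birc2, Birc3 and Yap1. Between Mmp12 and Mmp8, which both rose, stood Mmp1b, Mmp3, Mmp1a and Mmp10, whose differences ran from -0.14 to 0.07 and did not pass the test. Mmp1b, the next gene to Mmp12, read 1.55 and 1.56 in KO against 1.57 and 1.40 in WT. Of the 11 measured genes of this run and its flanks outside the set, 1 passed. It was Birc3, which encodes an inhibitor of apoptosis and read 7.12 and 7.00 in KO against 6.25 and 6.38 in WT, a rise of 0.74 ± 0.11 (SE; limma adjusted p = 0.00653). Without KO replicate 1 Birc3 (adjusted p = 0.0531) and Mmp8 did not pass, and Mmp12 did.

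**Figure D4:**
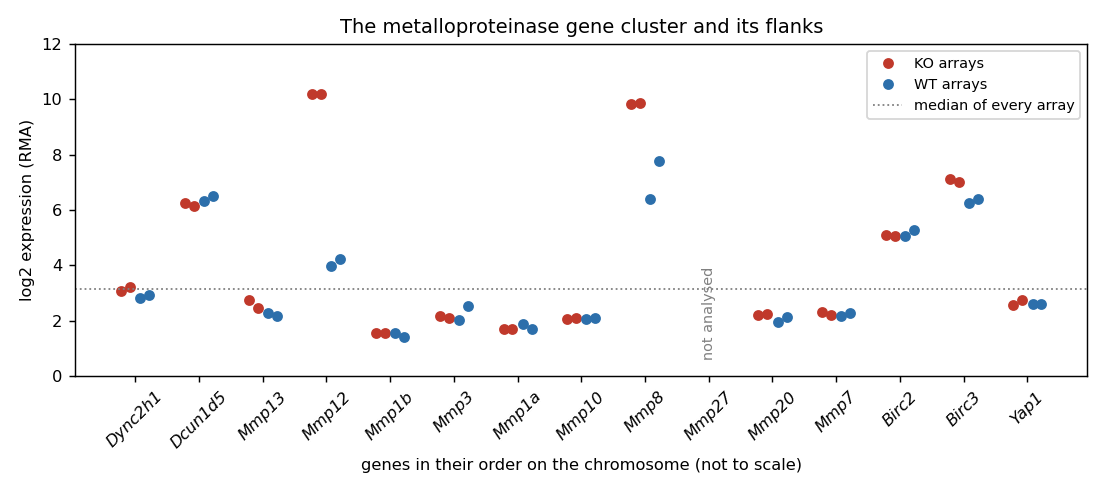
Log2 expression of the genes of the chromosome 9 metalloproteinase run and its flanks, in their order along the chromosome and not to scale, with KO arrays in red left of WT arrays in blue. Mmp12 and Mmp8 stand apart between groups, and the genes between them stay below the array median of 3.14 on all arrays.

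Genes that activate, inhibit or anchor metalloproteinases were measured for 24 of 26 listed. Of these, 3 rose, 1 fell and 20 did not pass, with a median difference of 0.00. Over all genes 14.3% changed, so the count for this list is near that background. The plasminogen activator genes rose, enzymes whose product plasmin can start the activation of secreted metalloproteinases. Plat read 4.73 and 4.27 in KO against 2.73 and 2.71 in WT (difference 1.78; limma adjusted p = 0.00115). Plau read 7.18 and 6.83 in KO against 5.30 and 4.67 in WT (difference 2.01; limma adjusted p = 0.00255). Itgav, an integrin chain, rose by 0.59 (limma adjusted p = 0.0450). Its call ended when KO replicate 1 (adjusted p = 0.0875), KO replicate 2 (0.209) or WT replicate 2 (0.145) was left out, and the adjusted p was 0.0724 with a replicate block, 0.0589 with centred arrays and 0.0695 with all probe sets tested. Cldn1, a tight junction protein reported to aid Mmp2 activation in other cells, fell by 4.16, with 2.71 and 2.66 in KO against 7.50 and 6.18 in WT (limma adjusted p = 0.00130). Reck, a membrane-anchored inhibitor of Mmp14 and Mmp2, averaged 2.29 in both groups, below the array median, and is named after its value was seen.

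Of 17 measured genes of matrix proteins and ligands that metalloproteinases cut, 2 rose, 0 fell (0 also at an unadjusted p under 0.05) and 15 did not pass in limma, with a median of 0.01. Over all genes 7.41% rose and 6.86% fell, so the count for this list is near that background. Fn1, which encodes fibronectin, read 11.18 and 11.17 in KO against 10.23 and 10.64 in WT (difference 0.74; limma adjusted p = 0.0230). Vcan, which encodes versican, differed by 0.48 (limma adjusted p = 0.0317) from values near the array median. Neither passed without KO replicate 1, without KO replicate 2 or without WT replicate 1, when the count was 0.

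Of 23 measured genes of transcription factors and cytokine signals known to act on metalloproteinase genes, 6 rose, 0 fell (0 also at an unadjusted p under 0.05) and 17 did not pass in limma, with a median of 0.24, against 7.41% of all genes that rose and 6.86% that fell. Ptgs2, the gene of the inducible prostaglandin synthase, read 9.77 and 9.39 in KO against 4.60 and 5.52 in WT (difference 4.52; limma adjusted p = 3.90e-04). Il6 read 9.39 and 8.84 in KO against 4.74 and 6.60 in WT (difference 3.44; limma adjusted p = 0.0107), with the WT arrays far apart. Il1a rose by 0.86 (limma adjusted p = 0.00365) and the interleukin 1 receptor gene Il1r1 by 0.59 (limma adjusted p = 0.0163). The Il6 call ended without KO replicate 1 (adjusted p = 0.0863) and with KO replicate 2 left out (0.0569). The Il1r1 call ended when either KO array or WT replicate 1 was left out. The count of genes that rose was 2 without KO replicate 1 and 2 without KO replicate 2, and 1 gene fell without WT replicate 2.

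The labelled cell type was checked against its markers, and markers of other cells that make these enzymes are given beside the results. In bulk samples, fewer cells of a type and less RNA per cell cannot be told apart. Of 18 measured alveolar macrophage markers, 11 fell, 0 rose and 7 did not pass in limma. At an unadjusted p under 0.05, 14 were lower and 1 was higher. Cidec (difference -5.67), Fabp1 (-5.96), Epcam (-4.37) and Perp (-2.59) had the smallest p among those that fell. The summed log2 level of the list was 125.5 and 128.0 on the KO arrays against 172.6 and 164.3 on the WT arrays. No marker of that list was below the array median on all 4 arrays. Over all genes 7.41% rose and 6.86% fell. The 7 markers that did not pass are named after their values were seen. Chil3 averaged 11.17 in KO and 11.13 in WT, and Atp6v0d2 averaged 10.83 in both. Plet1, Itgax and Car4 also read high on every array. Fabp4 and Marco were lower in KO, with the WT arrays far apart. Siglecf, named outside the rule for genes because it encodes the sorted surface protein Siglec-F, read 6.01 and 6.48 in KO against 9.59 and 9.44 in WT (difference -3.27; limma adjusted p = 1.64e-04).

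Markers of interstitial macrophages and monocytes were also mostly higher in KO, while over all genes 7.41% rose and 6.86% fell. With 2 groups, a shared direction shows no link between these markers and the metalloproteinase genes. Of 14 interstitial macrophage markers 9 rose and 1 fell, and their summed log2 level was 80.9 and 80.1 in KO against 51.4 and 51.4 in WT, with 4 of the 14 below the array median on all arrays. C1qc, a chain of complement C1q, read 7.42 and 7.08 in KO against 2.39 and 2.42 in WT. Pla2g2d read 7.95 and 8.23 in KO against 2.70 and 3.01 in WT. Of 11 monocyte markers 6 rose and 1 fell, with 1 marker below the array median on all arrays. Their sums were 63.9 and 61.9 in KO against 55.6 and 55.9 in WT. The markers that fell were Mrc1 of the interstitial macrophage list and Treml4 of the monocyte list. Treml4 read 4.70 and 4.79 in KO against 7.65 and 6.62 in WT. Cx3cr1 stands in both lists, so their counts are not separate. Mrc1 also stands among the alveolar macrophage markers that fell, and Vcan of the monocyte list among the matrix genes that rose. The count of monocyte markers that rose was 3 without KO replicate 1 and 3 without KO replicate 2. The part of these cells in the values of Mmp12, Mmp2, Mmp14, Mmp8, Timp2 and Timp1 was not tested.

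Mmp8 and Mmp9 are also genes of neutrophils. Of 13 neutrophil markers, 2 rose (Ceacam10 and S100a8), 2 fell (Wfdc21 and Csf3r) and 9 did not pass, with 5 higher and 3 lower at an unadjusted p under 0.05 and sums of 47.4 and 45.0 in KO against 42.8 and 42.3 in WT. S100a8 read 5.70 and 5.22 in KO against 3.65 and 3.43 in WT, and Csf3r, the receptor of the neutrophil growth factor, read 5.69 and 5.87 in KO against 7.08 and 7.57 in WT. Cxcr2 read 5.12 and 5.47 in KO against 4.77 and 3.92 in WT, and S100a9 read 3.31 and 2.74 in KO against 2.39 and 2.52 in WT, and neither passed (limma adjusted p = 0.0770 and 0.112). The granule gene Lcn2 read 3.68 and 3.12 in KO against 3.28 and 3.23 in WT. The 6 of the 13 that were below the array median on all arrays were Retnlg, Ngp, Camp, Ltf, Mpo and Elane, with values between 1.66 and 2.95. Beyond the changed ones, these markers were named after their values were seen. The part of neutrophils in the level of Mmp8 was not tested. Mmp2, Mmp14 and the TIMP genes are abundant in fibroblasts. Of 12 fibroblast markers 0 rose and 0 fell in limma (1 and 0 at an unadjusted p under 0.05), all values lay between 1.48 and 4.22, and 8 of the 12 were below the array median on all arrays. Their sums were 31.5 and 30.5 in KO against 31.0 and 32.8 in WT.

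**Figure D5:**
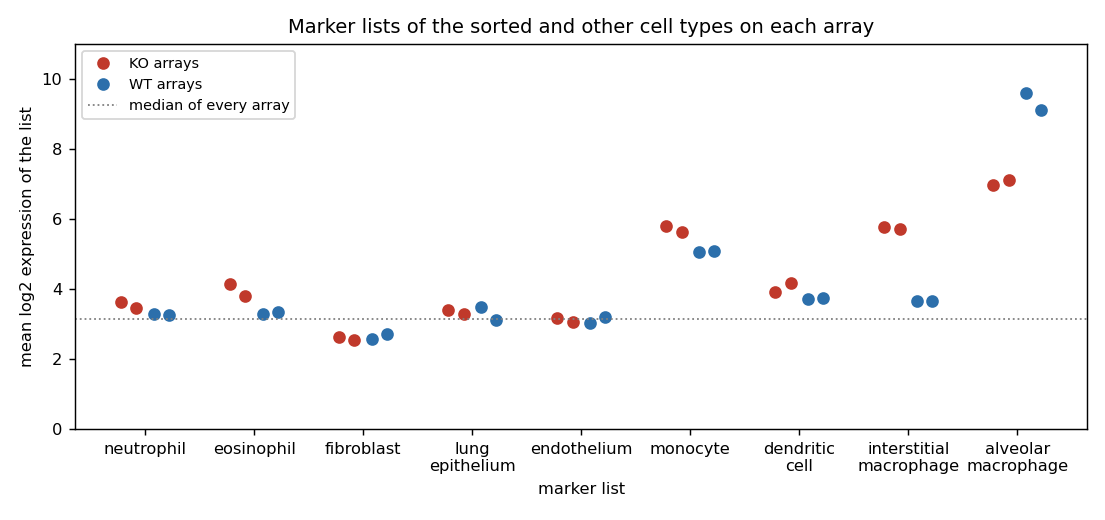
Mean log2 expression of each marker list on each array, with KO arrays in red left of WT arrays in blue and the array median dotted. The alveolar macrophage list is lower and the interstitial macrophage list higher on both KO arrays, and the fibroblast list is below the array median on all 4 arrays.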

How the data were processed

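The authors deposited 1 log2 value per probe set and array. Per the submitters' processing notes these come from RMA, run in R 2.15.2. That method corrects background, gives the arrays 1 common distribution and summarises the probes, so a shift of most transcripts in 1 direction is hidden and low values are compressed. For its settings and the genome build: not given in the sources used here. GEO's platform annotation supplied the gene names. Those with exactly 1 gene symbol were used, 1 per gene by the highest mean over the 4 arrays, with no filter on intensity, which left 18782 genes. The genotypes were compared in limma 3.58.1 (R 4.3.3), with group as the only term, two-sided, with Benjamini-Hochberg adjustment over all genes, and the procedure was tested on simulated data. The number of arrays, 2 per group, limits the precision. The members and the lists were chosen with earlier results of these data known. Genes named are the 10 members, Pparg, Itgam, any other family gene past the test and up to 4 genes of each list with the smallest p in each direction, and the others, among them Siglecf, Reck, Mmp1a, Mmp1b, Mmp3, Mmp10, Mmp23 and Timp4, were picked with their values in view. The alternatives were leaving out each array, a replicate block, centring or normalising the arrays again, leaving out dim genes, an intensity trend, robust empirical Bayes, all probe sets, and the mean of a gene's probe sets.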

Additional observations from a re-analysis of the deposited data

How the results depend on the processing

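Outside leaving out an array, 333 of 341 comparisons of a difference or count with its value under another setting kept direction and side of the threshold, or a count within 1.5 times. Part of this agreement was fixed in advance. Settings that alter only the test leave a difference unchanged, and each of the 10 genes had 1 probe set. Normalising the arrays again gave the same counts, 1391 genes higher and 1289 lower. Counts of 0 under both settings were also taken as kept. Timp1, with a difference of 1.67 in each case, lost its call with robust empirical Bayes (adjusted p = 0.05002) and with all probe sets tested (0.0598). With an intensity trend, 13 inputs of metalloproteinase genes rose, 3 activators and partners fell, 1 matrix gene rose and 1 alveolar macrophage marker rose. With dim genes left out 1 matrix gene rose, and Mmp9, Mmp13 and Timp3 were not tested. The cause was not tested. The replicate numbers are shared by the groups in the labels, but the deviations of same-numbered arrays correlated over genes with r = -0.017, so the numbers were not taken as pairs. With a replicate block 1309 genes rose and 1168 fell, no call of the 10 genes changed, and the count of interstitial macrophage markers that fell was 0.

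With 1 array left out at a time, between 724 and 1227 genes rose and between 647 and 1057 fell, and between 4 and 5 of the 10 genes rose. Differences ran from 2.07 to 3.45 for Mmp8, from 1.37 to 2.32 for Timp2, from 1.03 to 2.31 for Timp1, from -0.0245 to 0.14 for Mmp9, from -0.19 to 0.0375 for Mmp19 and from -0.12 to 0.01 for Pparg. Counts that rose ran from 0 to 2 for matrix genes, 2 to 7 for inputs, 1 to 3 for the chromosome run, 1 to 2 for epithelium markers and 3 to 6 for monocyte markers. Counts that fell ran from 0 to 1 for inputs, eosinophil, fibroblast and dendritic cell markers, 1 to 3 for epithelium markers and 0 to 0 for interstitial macrophage markers.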

Other observations

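Genes whose annotated span overlaps that of a member (RefSeq, GRCm38.p6) were looked up after the members' values were seen. Timp1 overlaps the synapsin gene Syn1, which read 5.07 and 4.89 in KO against 6.80 and 6.69 in WT and fell by 1.77 ± 0.11 (SE; limma adjusted p = 3.20e-04), while Timp1 rose. Timp2 overlaps Cep295nl, which read 3.34 and 3.57 in KO against 2.79 and 2.92 in WT (difference 0.60 ± 0.12; limma adjusted p = 0.0217), and which did not pass without KO replicate 2 (0.112) or without WT replicate 1 (0.0935). Timp3 overlaps Syn3, which read 2.34 and 2.33 in KO against 2.31 and 2.58 in WT and did not pass the test (limma adjusted p = 0.635).

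Of 12 lung epithelium markers 1 rose, 2 fell and 9 did not pass. Over all genes, the background for each list here, 7.41% rose and 6.86% fell. The 5 of the 12 that were below the array median on all arrays included Sftpd, Foxj1 and Nkx2-1, named after their values were seen. Scgb1a1, named in the same way, was above the array median on every array and did not pass. Its values were 6.48 and 6.63 in KO against 6.89 and 4.26 in WT. Hopx read 7.14 and 6.92 in KO against 4.09 and 4.65 in WT, and Ager read 3.87 and 3.64 in KO against 5.13 and 5.02 in WT. Cldn18, which also fell, read 2.58 and 2.39 in KO against 3.74 and 3.36 in WT. Of 10 endothelium markers Vwf rose, with 7.17 and 7.30 in KO against 6.09 and 6.04 in WT. The other 9 did not pass, and 0 fell in limma (2 at an unadjusted p under 0.05). On all arrays, 6 of the 10 were below the array median. Of 12 dendritic cell markers 2 rose, 1 fell and 9 did not pass, and 6 were below the array median on all arrays. Cd209a and Cd24a rose, and Cd209a read 4.48 and 5.06 in KO against 2.70 and 2.75 in WT. Batf3 fell, with 2.95 and 3.25 in KO against 4.26 and 3.79 in WT. Of 9 eosinophil markers 2 rose, 0 fell in limma (0 at an unadjusted p under 0.05) and 7 did not pass. Rnase2a read 8.95 and 8.43 in KO against 3.65 and 3.34 in WT. Cd24a, which also rose, stands in the dendritic cell list too, so the counts of these lists are not separate. The 5 of the 9 that were below the array median on all arrays included Epx, Prg2, Ccr3 and Il5ra, named after their values were seen.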
